A study of Homo sapiens with 6 samples.

Results

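Mitosis and the G2/M transition are represented here by 46 genes, whose mRNA was sequenced in the established human melanoma line A375. They are the rows of the deposited table of 28395 genes whose symbol equals a listed name, and all 46 names were found once each. Control cultures received olive oil (OLO) at 0.01% and the treated ones ozonated olive oil (OZO, olive oil reacted with ozone) at the same 0.01%, both for 6 h, and each group has 3 libraries. Both groups are labelled WT and were grown in the same serum-containing medium, and all libraries come from this single line.

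The only measurement used is the authors' mean over the 6 libraries of the log2 CPM (reads of a gene scaled to a common library total), a level that pools OZO and OLO. It carries no spread between libraries, so the order of neighbouring genes was not tested. Whether any of these genes differed between OZO and OLO was not analysed here. From the lowest level, that of genes with no read, the libraries had a geometric mean total of 18409902 reads. Any read at all was recorded for 21383 genes, and 13773 genes averaged 10 reads or more in a library. Reads are given below as the geometric mean per library. The relative counting error of the members, taken from their reads over all libraries, was about 0.287% for TOP2A and up to 2.79% for PIF1. It covers counting only, not the spread between libraries.

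Entry into mitosis is driven by CDK1 bound to cyclin B. WEE1 holds this kinase inactive and CDC25 phosphatases release it. Aurora and Polo-like kinases then build the spindle, while the spindle checkpoint blocks the anaphase-promoting complex (APC/C) until every chromosome is attached. CDC20 afterwards lets APC/C destroy securin and cyclin B, and the cell divides. Many genes of this programme are transcribed late in the cell cycle through CCAAT boxes, which bind NF-Y, and through the cell cycle genes homology region (CHR), which is bound by complexes built on the MuvB core. In a bulk sample a larger share of cells in G2 or mitosis and more RNA per cell cannot be told apart.

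The melanoma label was checked against marker genes. SOX10 and MITF, transcription factors of the melanocyte lineage, had 918.7 and 498.5 reads. The pigment genes were low, with 36.6 reads for MLANA, 11.02 for TYRP1, 5.75 for PMEL, 4.74 for DCT and 0 for TYR, and S100B had 50.98. Of the 8 melanocyte genes, 5 therefore reached 10 reads. AXL, a receptor kinase of dedifferentiated melanoma, had 4915 reads, and NGFR, EGFR and SOX9 of the same list had 696.2, 520.3 and 84.97. Of 5 keratinocyte genes, KRT10 had 469.03 reads and KRT14 had 77.5, while KRT5, DSG3 and KRT1 had fewer than 10. Of 5 fibroblast genes LUM and COL1A1 reached 10 reads, and of 4 immune genes CD14 did.

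The promoters are shown first because CHR and CCAAT matches were more frequent in them than in promoters at large, although not every member held them. RefSeq promoters of GRCh38.p14, which run from 250 bases before to 50 after the gene's start, were matched for 38 of the 46 genes, with the first listed promoter of each gene taken. They were not matched for AURKA, BIRC5, BUB3, FOXM1, TPX2, TTK, UBE2C and WEE1. The CHR was searched on both strands as TTTGAA or as TTCGAA, and the CCAAT box by those letters, also on both strands. TTCGAA reads the same on both strands and was counted once, and matches of the different motifs may share a letter. Of the 16 members that held a CHR and at least 2 CCAAT boxes, the 4 with the highest level per length are printed 5′ to 3′ on the strand of the gene, with both motifs in capitals whichever strand they lie on.

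TOP2A, which encodes the DNA topoisomerase that untangles chromosomes, has its promoter on the minus strand at chr17:40417847-40418146, with 2 CHR and 4 CCAAT matches.
TOP2A: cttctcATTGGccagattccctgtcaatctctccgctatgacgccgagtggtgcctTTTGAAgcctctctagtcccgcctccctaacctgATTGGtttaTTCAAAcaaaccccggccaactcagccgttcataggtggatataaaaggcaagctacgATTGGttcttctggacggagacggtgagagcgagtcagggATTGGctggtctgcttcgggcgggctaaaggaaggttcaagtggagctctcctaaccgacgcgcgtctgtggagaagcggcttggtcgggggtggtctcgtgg

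NUSAP1, which encodes a spindle protein that bundles microtubules, has its RefSeq promoter on the plus strand at chr15:41332631-41332930, inside the GENCODE gene (start 41320794), with 1 CHR and 3 CCAAT matches.
NUSAP1: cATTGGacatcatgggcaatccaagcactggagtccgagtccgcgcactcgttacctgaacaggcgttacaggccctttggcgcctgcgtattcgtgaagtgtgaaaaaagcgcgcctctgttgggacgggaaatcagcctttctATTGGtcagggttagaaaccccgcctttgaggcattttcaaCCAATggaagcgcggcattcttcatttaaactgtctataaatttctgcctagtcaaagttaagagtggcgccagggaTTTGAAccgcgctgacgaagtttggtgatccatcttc

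CDC20, which encodes the activator of APC/C, has its promoter on the plus strand at chr1:43358731-43359030, with 2 CHR and 2 CCAAT matches.
CDC20: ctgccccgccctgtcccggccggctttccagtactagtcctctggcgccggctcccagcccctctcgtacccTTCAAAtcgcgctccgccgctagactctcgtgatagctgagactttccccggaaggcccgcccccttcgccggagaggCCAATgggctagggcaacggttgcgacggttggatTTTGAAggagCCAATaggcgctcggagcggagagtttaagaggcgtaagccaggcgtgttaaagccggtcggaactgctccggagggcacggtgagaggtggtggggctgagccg

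CENPF, which encodes a large kinetochore protein, has its promoter on the plus strand at chr1:214602945-214603244, with 1 CHR and 4 CCAAT matches.
CENPF: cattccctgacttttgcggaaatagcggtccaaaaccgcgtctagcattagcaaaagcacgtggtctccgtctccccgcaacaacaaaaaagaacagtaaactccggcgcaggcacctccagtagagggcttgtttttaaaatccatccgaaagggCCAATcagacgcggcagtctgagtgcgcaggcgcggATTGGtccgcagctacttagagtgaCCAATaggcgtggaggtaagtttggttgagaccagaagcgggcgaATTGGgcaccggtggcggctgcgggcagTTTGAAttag

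A CHR match was present in 28 of the 38 member promoters (73.7%), against 16.6% of all 27305 promoters of the same length. A CCAAT box was present in 31 of them (81.6%), against 35.7% of all promoters. At least 2 CCAAT boxes were present in 20 members (52.6%) and in 11.3% of all promoters. The combination of a CHR with at least 2 CCAAT boxes occurred in 16 members (42.1%) and in 1.98% of all promoters. Among the 10835 promoters of genes with at least 10 reads, the shares were 11.4% for the CHR, 37.04% for CCAAT and 1.69% for the combination. A TATAAA match on either strand was found in 2 members, TOP2A and NUSAP1, which is 5.26% against 11.95% of all promoters and 5.69% of those of genes with at least 10 reads. The median GC content of the member promoters was 61.2%, against 58.3% over all promoters and 65.0% over those of genes with at least 10 reads. These shares are descriptions of sequence, and no binding was measured.

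**Figure D1:**
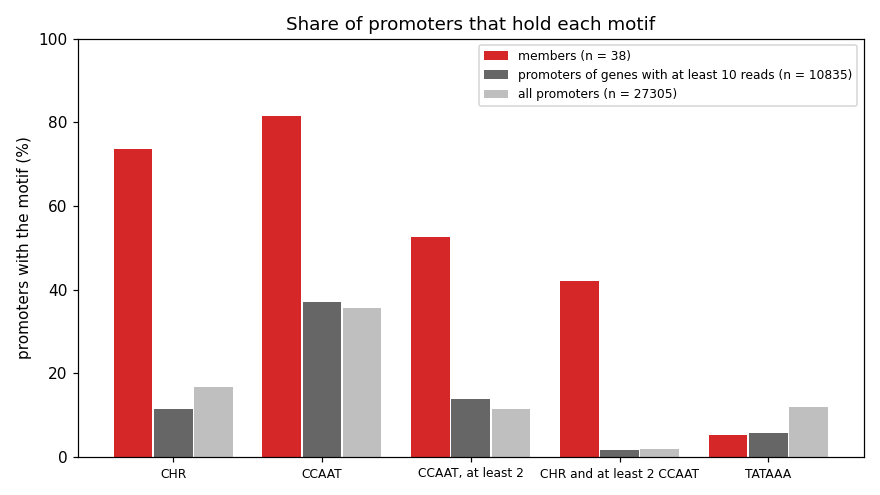
Share of promoters (%) that hold each motif, for the 38 member promoters, the 10835 promoters of genes with at least 10 reads and all 27305 promoters. The CHR bar of the members stands at 73.7%, against 11.4% and 16.6% for the other bars.

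The motifs differed in position. The 67 CCAAT boxes of the members had a median centre 77 bases before the start, with quartiles at −115.5 and −52. The 38 CHR matches lay closer to it, with a median of −22 and quartiles at −60 and 0.75. A CHR centred within 50 bases of the start was held by 23 of the 38 members (60.5%), against 5.15% of all promoters and 3.38% of those of genes with at least 10 reads. Neighbouring CCAAT boxes were 25 to 40 bases apart in 13 members (34.2%), against 3.68% and 5.33% of these promoter sets. Examples were CCNB1 with 32 bases, NEK2 with 32, CCNB2 with 33 and 33, and KIF20A with 27. HMMR, which encodes a spindle-associated hyaluronan receptor, held the most CCAAT matches at 5, of which 2 lay 3 bases apart and share letters.

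**Figure D2:**
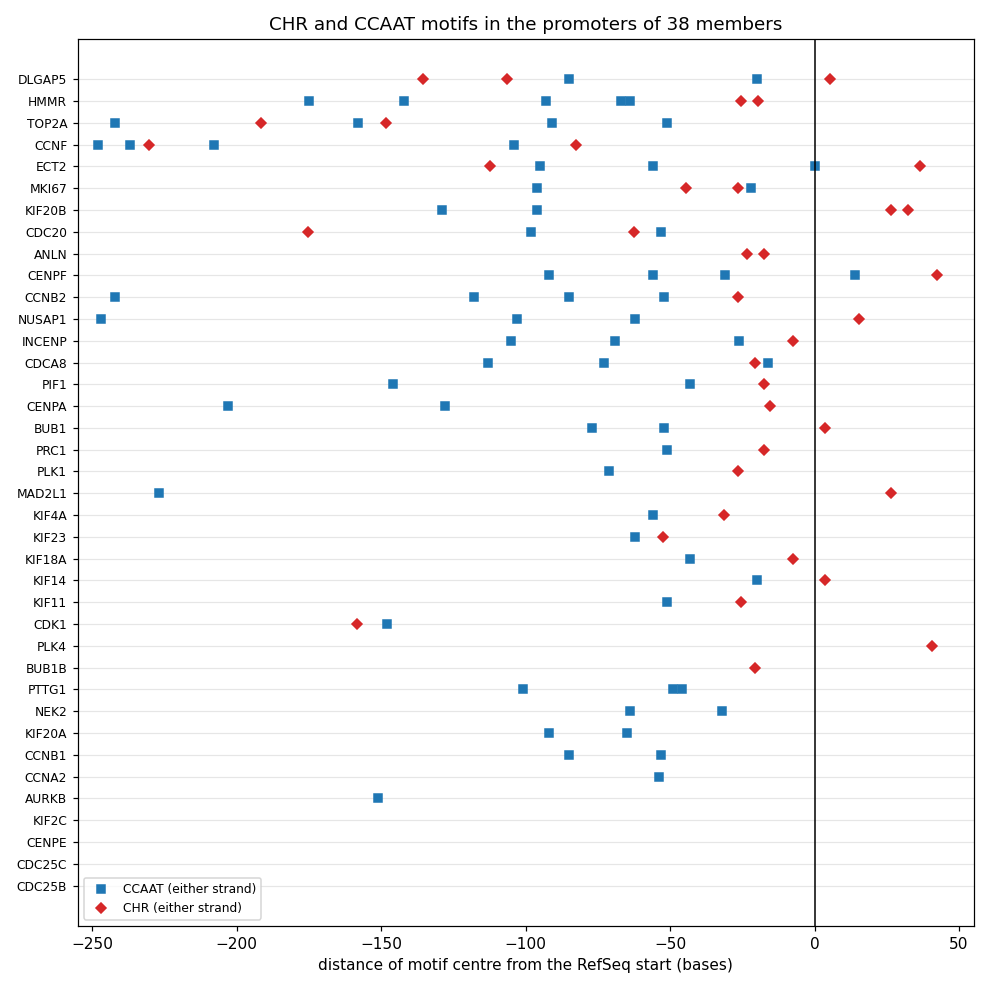
Each row is 1 of 38 member promoters, and the x axis is the distance of a motif's centre from the RefSeq start in bases, with CCAAT boxes as blue squares and CHR matches as red diamonds. CCAAT boxes gather around a median of −77 and CHR matches around −22.

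Promoters without a CHR match were those of AURKB, CCNA2, CCNB1, CDC25B, CDC25C, CENPE, KIF20A, KIF2C, NEK2 and PTTG1. No match says only that these letters are not in this window. Only the first listed promoter of each gene was searched, and whether A375 cells use it was not measured. CDC25B, CDC25C, CENPE and KIF2C held neither motif. The median level was 7.37 log2 CPM for the 28 members with a CHR and 7.37 for the 10 without, and the medians divided by transcript length were 46.3 and 62.7 CPM per kb. The 16 members with the combination ranged from 3.54 log2 CPM (PIF1) to 10.10 (TOP2A), which is the whole range of the 46 genes.

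As a group the 46 genes were abundant. All had over 100 reads a library, and 42 had over 1000. Of all 28395 genes, 10104 had at least 100 reads, and the number with over 1000 was not computed. Their median level was 7.37 log2 CPM (165.9 CPM), with quartiles at 6.82 and 7.91. The median was 1.96 log2 CPM over the 21383 genes with a read and 4.47 over the 13773 with at least 10 reads. Of the 46 genes, 35 lay in the top 10% of genes with a read and 43 in the top 25%. The exceptions were PIF1, CDC25C and CENPA, at percentiles 59.96, 68.5 and 73.998. Together the 46 genes made up 1.05% of the summed mean CPM, and the 3 highest of them, TOP2A, CENPF and MKI67, held 27.3% of that part.

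**Figure D3:**
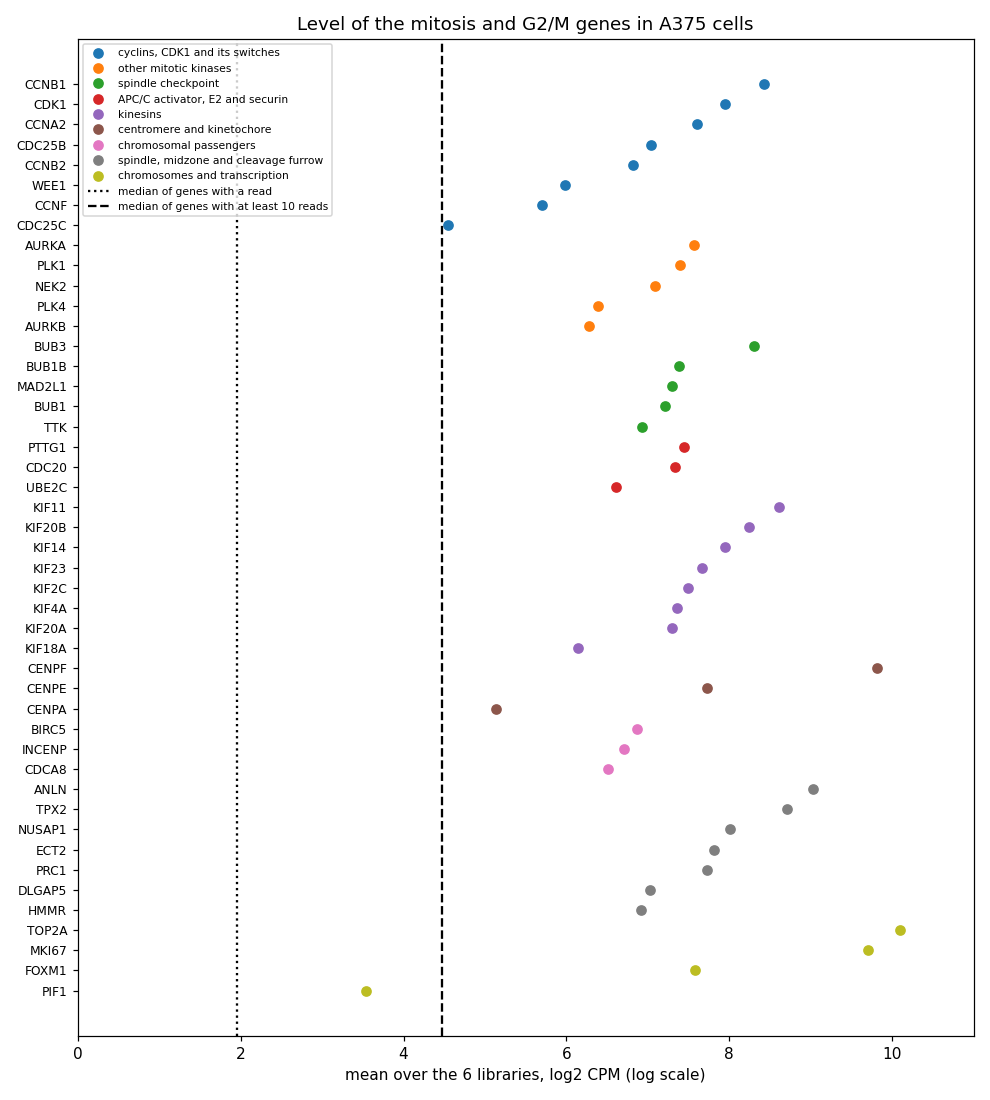
Each point is the authors' mean of 1 gene over the 6 libraries in log2 CPM, coloured by role. All 46 points lie to the right of the dotted line, the median of genes with a read at 1.96, and 2 lie near or to the left of the dashed line at 4.47, PIF1 at 3.54 and CDC25C at 4.55.

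Longer mRNAs give more fragments, so levels of different genes were compared per kilobase of the main transcript (the canonical transcript of GENCODE 44). The exons over which the authors counted reads were not compared with these transcripts and may differ from them. Main transcripts ranged from 715 bases (PTTG1) to 12716 bases (MKI67), and across the 46 genes the log2 CPM and the length had a Spearman rho of 0.45, a description across genes that are not independent. The median was 52.3 CPM per kb, which was 7.08 times the median of 7.39 over genes with at least 10 reads and a known length. Per length, 23 of the 46 genes lay in the top 10% of those genes and 41 in the top 25%. The division changed the order. PTTG1 moved from rank 21 by CPM to rank 1 and UBE2C from 37 to 5, while BUB3 moved from 8 to 31 and CENPE from 14 to 40.

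**Figure D4:**
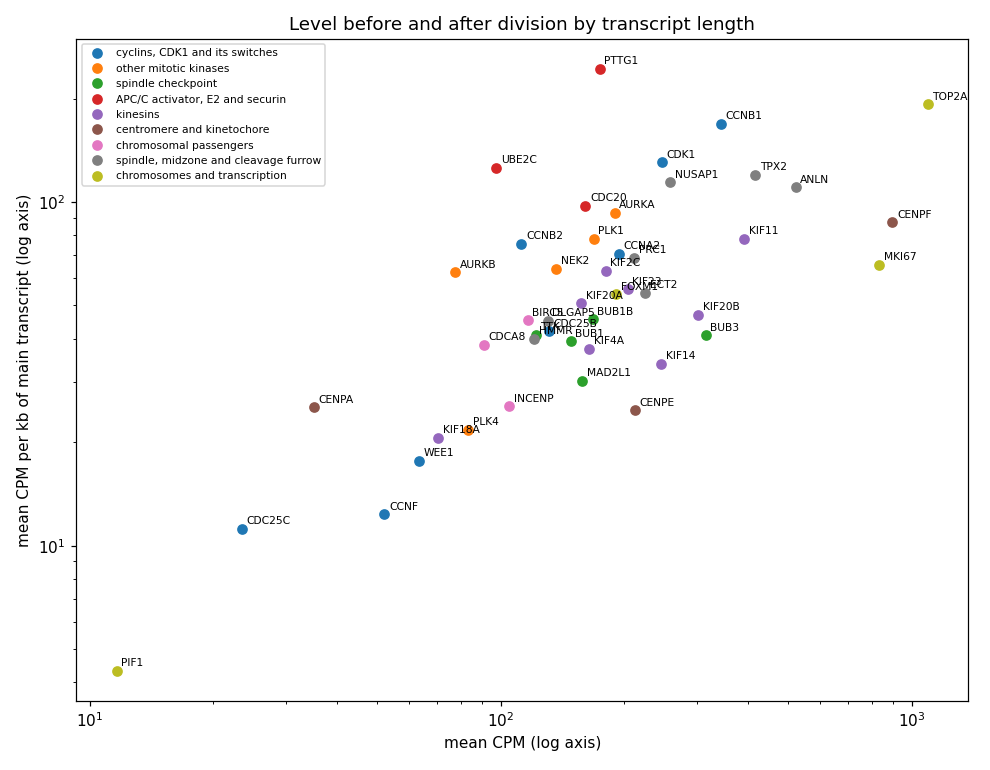
Mean CPM (x, log axis) against mean CPM per kb of main transcript (y, log axis) for the 46 genes, coloured by role. PTTG1 is highest per length at 243.8 CPM per kb, TOP2A is highest by CPM at 1096, and PIF1 is lowest on both axes.

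The cyclins and the switches around CDK1 came first in the programme. CCNB1 (chromosome 5, 69167135 to 69178245, plus strand), the main mitotic cyclin, had 6313 reads and 169.007 CPM per kb, and CDK1 (chromosome 10, 60778331 to 60794852, plus strand), its kinase partner, had 4540 reads and 130.6 CPM per kb. Per length the CCNB1 mRNA was thus 1.29 times that of CDK1 and 2.24 times that of CCNB2, the Golgi-associated cyclin B, which had 75.5 CPM per kb. CCNA2, the cyclin of S phase and G2, had 70.7 CPM per kb. With the longest annotated transcript of each gene, CCNB2 had 44.9 CPM per kb, below CCNA2, and the ratio of CCNB1 to CCNB2 was 3.77. CCNF, an F-box protein that does not activate a CDK, had 12.3, so that CCNB1 was 13.7 times higher per length. These values place the partners CDK1 and CCNB1 side by side, above the other cyclins.

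The regulators of CDK1 were lower than the kinase. WEE1 (chromosome 11, 9573670 to 9593457, plus strand), which phosphorylates and inhibits CDK1, had 1164 reads and 17.6 CPM per kb, and CDK1 was 7.40 times higher per length. Of the activating phosphatases, CDC25B had 2411 reads and 42.0005 CPM per kb, and CDC25C had 430.8 reads and 11.2 CPM per kb. CDC25B was therefore 3.75 times CDC25C and 2.38 times WEE1 per length. CDC25C had the lowest level of the 8 genes of this role, both by CPM and per length.

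Among the other mitotic kinases, AURKA (chromosome 20, 56369389 to 56392337, minus strand), which acts at centrosomes and spindle poles, had 3487 reads and 93.2 CPM per kb. AURKB, the kinase of the chromosomal passenger complex, had 1427 reads and 62.4 CPM per kb. AURKA was 2.44 times AURKB by CPM but 1.49 times per length. PLK1, which acts from mitotic entry to cytokinesis, had 78.01 CPM per kb and NEK2, which separates centrosomes, had 63.9. PLK4, the kinase of centriole duplication, was lowest of the 5 at 21.7 CPM per kb, and PLK1 was 3.59 times higher. The place of PLK1 depended on the transcript taken, since with the longest one it had 40.8 CPM per kb, which was 1.87 times PLK4 and below NEK2 and AURKB.

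Per kb of main transcript the 5 spindle checkpoint genes formed a narrow band. BUB1B had 45.6 CPM per kb, TTK 41.01, BUB3 40.98, BUB1 39.4 and MAD2L1 30.2, so the highest was 1.51 times the lowest. BUB1 and TTK encode checkpoint kinases, and BUB1B, BUB3 and MAD2L1 encode proteins of the complex that captures CDC20. By CPM the same genes spanned 121.6 (TTK) to 315.7 (BUB3), so the band depends on the lengths taken. BUB3 had the longest main transcript of them at 7703 bases, followed by MAD2L1 at 5227. For both it is also the longest annotated transcript, so no other length was tried for them. CDC20 (chromosome 1, 43358981 to 43363203, plus strand), the target of the checkpoint, had 2959 reads and 97.5 CPM per kb, which was 3.23 times MAD2L1 and 2.14 times BUB1B per length, while by CPM the ratio to BUB1B was 0.960.

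Downstream of CDC20 the levels per length were among the highest of the 46 genes. PTTG1 (chromosome 5, 160421855 to 160428739, plus strand), which encodes securin, the inhibitor of separase, had 3209 reads and 243.8 CPM per kb. UBE2C (chromosome 20, 45812576 to 45816957, plus strand), the ubiquitin-conjugating enzyme that starts chains on APC/C substrates, had 1797 reads and 125.7 CPM per kb. Both have short main transcripts, of 715 and 777 bases. With the longest annotated transcript of each gene in its place, PTTG1 had 162.9 CPM per kb and rank 3, below TOP2A and CCNB1, and UBE2C had 106.8. The median of these 3 genes, with CDC20, was 125.7 CPM per kb, the highest of the 9 roles.

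The 8 kinesins had a median of 48.9 CPM per kb. KIF11, the motor that pushes spindle poles apart, was highest with 7213 reads and 78.1 CPM per kb, followed by KIF2C, a microtubule depolymerase, at 63.01, and KIF23, a motor of the central spindle, at 55.7. KIF20A and KIF20B, related motors of late mitosis, had 50.8 and 46.9 CPM per kb. KIF4A, a chromokinesin, had 37.5 and KIF14, a cytokinesis motor, had 33.8. KIF18A, which dampens chromosome oscillations, was lowest with 1295 reads and 20.6 CPM per kb, so that KIF11 was 3.79 times higher.

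The centromere genes differed widely by CPM and less so per length. CENPF had 16547 reads and CENPA, the centromeric histone H3 variant, had 644.9, a ratio of 25.6 by CPM. Per length CENPF had 87.3 CPM per kb, CENPA 25.2 and CENPE, a kinesin of the kinetochore, 24.8. Of the chromosomal passenger genes that work with AURKB, BIRC5 (survivin) had 45.3 CPM per kb, CDCA8 (borealin) 38.4 and INCENP, the scaffold, 25.5. AURKB was 2.45 times INCENP per length but lower than INCENP by CPM, with a ratio of 0.740.

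Genes of the spindle, the midzone and the cleavage furrow had a median of 68.8 CPM per kb. TPX2, which activates AURKA on the spindle, had 7675 reads and 120.05 CPM per kb, 1.29 times AURKA. NUSAP1 had 4759 reads and 114.2 CPM per kb, and ANLN, the furrow scaffold anillin, had 9618 reads and 110.4. PRC1, which bundles midzone microtubules, had 68.8, and ECT2, the exchange factor that activates RHOA at the furrow, had 54.3. DLGAP5, a spindle protein, had 45.2 and HMMR 40.06 CPM per kb, the lowest of the 7.

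TOP2A (chromosome 17, 40388525 to 40417896, minus strand) had the highest level by CPM, with 20181 reads, 1096 CPM and 192.5 CPM per kb. MKI67, the proliferation antigen that coats mitotic chromosomes, had 15380 reads and 835.4 CPM, but its long main transcript brought it to 65.7 CPM per kb, and TOP2A was 2.93 times higher per length. FOXM1, a transcription factor of the G2/M programme, had 3522 reads and 53.9 CPM per kb. PIF1 (chromosome 15, 64815632 to 64825668, minus strand), a DNA helicase, was lowest of all with 213.7 reads and 4.33 CPM per kb. It was the only member below the median per length of genes with at least 10 reads, and PTTG1 was 56.4 times higher per length (37.7 times with the longest transcripts).

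Other genes of the pathway were taken from lists of their roles. The 8 condensin genes had a median of 43.6 CPM per kb, from 8.39 (NCAPH2) to 175.2 (SMC4), and the 10 genes of cohesin and its release had 38.8, from 9.04 (ESPL1, which encodes separase) to 167.8 (RAD21). The 15 APC/C genes had a median of 26.005, from 5.38 (FZR1) to 63.9 (ANAPC5). The 24 further kinetochore genes had a median of 20.9 and, as a ratio of highest to lowest, the widest range of these lists, from 0.015 (SKA1) to 102.6 (NUF2). SKA1 lies near the floor, with 0.0427 CPM against 0.0272 CPM for TYR, a gene with no read. Its value and that ratio are therefore set largely by the amount added to every count. The next lowest gene of the list was SPC25 at 1.83 CPM per kb. The 13 genes of the DREAM and MuvB complexes and NF-Y had a median of 18.1, from 5.98 (LIN37) to 137.7 (TFDP1). The 29 genes of DNA replication and S phase had a median of 40.5, from 9.78 (GINS3) to 366.3 (RRM2). The corresponding median of the 46 genes was 52.3 CPM per kb. The ranges overlapped and no difference between lists was tested. The securin PTTG1 had 243.8 CPM per kb beside 9.04 for ESPL1, the separase it inhibits.

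**Figure D5:**
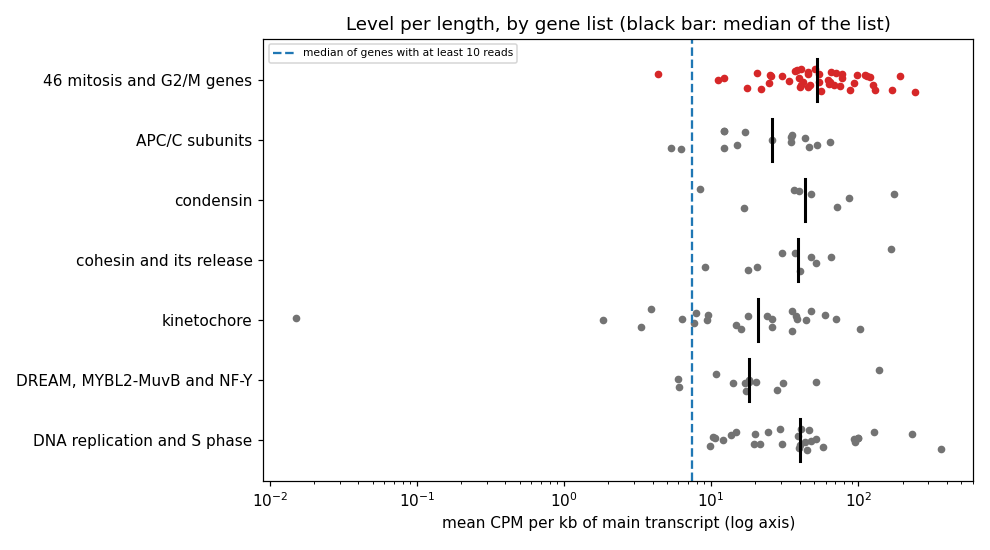
Each point is the mean CPM per kb of main transcript (log axis) of 1 gene, by list, with a black bar at the list's median and a dashed line at the median of genes with at least 10 reads. The bar of the 46 genes stands at 52.3 CPM per kb and those of the other lists between 18.1 and 43.6, with wide overlap.

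The 46 genes lie on 16 chromosomes, with up to 6 on any of them. In 8 of the 46 (17.4%) another coding gene started upstream within 1000 bases, in the opposite direction and without overlap. The share was 8.55% of all coding genes and 10.99% of those with at least 10 reads. Opposite genes that overlap at their starts were not counted in any of these sets. A start here is the outer end of the whole GENCODE gene, which need not be where its main transcript begins. Whether the main transcripts of these pairs lie as close was not checked. These starts were 9 bases apart for KIF11 and IDE, 32 for CDC25B and CENPB, 34 for AURKA and CSTF1, and 49 for FOXM1 and TULP3. HMMR and NUDCD2 were 101 bases apart. In 7 of the 8 pairs the member had the higher level by CPM, as for HMMR with 6.92 and NUDCD2 with 5.15 log2 CPM. The exception was PTTG1, with 7.45 against 7.49 for SLU7, 144 bases away. These levels were not divided by length, and the share over all such pairs was not computed. Since 43 of the 46 genes lay in the top 25% of genes with a read, the count says little about the pairs.

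Reads of some members may be shared with other genes. The gene bodies of 10 members overlapped another coding gene in the table, in 12 pairs. The exons of the main transcripts overlapped in 3 pairs, all on opposite strands, with 254 bases for CCNA2 and EXOSC9, 74 for KIF20A and CDC23, and 58 for PLK1 and ERN2. These are at most 9.24% of the member's main transcript. On the same strand, the non-coding OIP5-AS1, with 589.3 reads, overlapped the gene body of NUSAP1 by 1599 bases. GENCODE also lists unnamed coding genes on the same strand over 60203 bases of NUSAP1 and 29440 bases of PRC1. It lists BUB1B-PAK6 on the same strand over 2624 bases of BUB1B. No level was matched for these coding genes. The libraries kept the strand, but its use in counting is not given in the sources used here. Among retrogenes and pseudogenes, KIF4B had 17.7 reads beside 3025 for KIF4A, PTTG2 had 0.497 beside 3209 for PTTG1, and AURKAP1 had 176.3 beside 3487 for AURKA. Pseudogenes of UBE2C, NEK2, CCNB2, WEE1, BUB1, BUB3, MAD2L1, CDC20, AURKB, DLGAP5 and MKI67 are also listed in GENCODE, without a matched level. The values of all these members are uncertain to the extent that reads were split or left uncounted.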

How the data were processed

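RNA of A375 cells was sequenced from 6 strand-specific paired-end libraries, 3 of OLO and 3 of OZO as labelled, after 6 h. The authors aligned reads to hg38 with HISAT2 2.1.0, counted them with featureCounts 2.1.1 and ran limma-voom 3.58.1. The authors deposited 1 table of 28395 genes, whose mean log2 CPM across libraries was the only measurement used. In these log2 values, the authors' voom step had added 0.5 to every count. The other 5 numeric columns, the authors' own comparison of OZO with OLO (fold change, t, p-value, adjusted p-value and log odds), were not used.

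The lowest level was taken as that of no read in any library, which gives the library size and the reads of each gene. If so, 2 to the power of 6 times a level's distance from the lowest is a product of odd whole numbers. All 6402 genes with a read and a product under 1000000 came within 0.001 of an odd whole number. The recovery and the motif search were tested on simulated data. Lengths, positions and neighbours came from GENCODE 44 (25497 genes matched by Ensembl identifier) and promoters from RefSeq (GRCh38.p14, matched by Entrez identifier). Analyses used Python 3.11.15 and pandas 2.3.3.

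Members and lists were chosen with earlier results of these data known. All 46 members were named, and of each other list the highest and lowest gene. The promoters printed are the 4 with the highest level per length among members with a CHR and at least 2 CCAAT boxes. Pair ratios, motif spacing, neighbours, overlaps and copies were chosen after the levels were seen. No test was run, since the values used hold no replicates.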

Additional observations from a re-analysis of the deposited data

How the results depend on the processing

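No paired analysis was possible because the column used is a mean over all 6 libraries. For the same reason the alternatives for the OZO and OLO difference (a replicate block, leaving out each replicate, filters and other tools) were not run, and neither were those for a KEN motif in the proteins, which were not analysed here. The median level of the 46 genes exceeded that of genes with a read by 5.41 on the log2 scale, by 2.91 against genes with at least 10 reads and by 5.86 with means in place of medians. The median per kb of 5.71 log2 CPM became 5.53 with the longest transcript of each gene, and the level with no division by length was 7.37 log2 CPM. For 25 of the 46 genes the main transcript already was the longest, so that choice could not change their values. No shorter transcript was tried. The median of genes with at least 10 reads moved alike, and the members exceeded it by 2.82, 2.86 and 2.79 on the log2 scale. Restriction to members with at least 100 reads removed none. The CHR share of 73.7% was 71.05% with TTTGAA alone, where all promoters had 15.43%. It was 68.4% in the window from 100 bases before the start, where all promoters had 7.43%. The CCAAT share of 81.6% was 68.4% in that window, against 22.04% of all promoters. At least 2 boxes were held by 52.6%, against 11.3% of all promoters. Which transcript A375 cells use for each gene was not measured. The fewest reads a library among the members were 213.7 for PIF1 and 430.8 for CDC25C.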

Other observations

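Of the 24 further kinetochore genes, 22 had at least 100 reads. SKA1 and SPC25 did not, and they were singled out after their values were seen. SKA1 encodes a subunit of the microtubule-binding Ska complex. Its level corresponds to a product of 15, which allows a total of either 3 or 7 reads over the 6 libraries. The partners of SKA1 in the complex, SKA2 and SKA3, had 1947 and 1273 reads a library. SPC25 encodes a subunit of the Ndc80 complex and had 44.7 reads, while NDC80, NUF2 and SPC24, the other subunits, had 1856, 3707 and 624.2. How the counting treated these genes is not given in the sources used here, and the cause was not tested.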
